A study of Mus musculus with 17 samples.

Results

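Adipoq, Cfd, Plin1, Plin4, Fabp4, Cidec, Cidea, Retn, Lep and Ucp1 are genes of fat cells, and here they were read in RNA from mouse kidney cortex, a tissue that is wrapped in perirenal fat. These 10 genes of 48795 in the count table were chosen by their symbols, with their high values in some of these libraries already known, so their levels and fitted changes are given as a description, without p-values. The question was whether they were all high in the same libraries and all low in the others, as pieces of fat left on the dissected tissue would give. They were only partly so. Adipoq, Cfd, Plin1, Retn and Cidec had their 3 highest values in the same 3 of 17 libraries, which were GCERAΔ 2, GCERAΔ 3 and TRACK 1. Ucp1 shared this order only with 8 counts in TRACK 1, against 104 and 73 in GCERAΔ 2 and 3. Lep and Cidea were high in GCERAΔ 2 and 3 but not in TRACK 1, and Plin4 and Fabp4 followed other orders.

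Libraries of mRNA were labelled as WT (5 mice), GCERAΔ (5 mice), TRACK (3 mice) or TRACK-ATF4 KO (4 mice). GCERAΔ mice carry floxed Atf4 alleles and a tamoxifen-inducible Cre (CreER) driven by the Ggt1 promoter, which acts in the proximal tubule, the main reabsorbing segment of the cortex. From 6 weeks of age, tamoxifen (20 mg/mL, 200 µL a day) was injected on 2 consecutive days. About 1 month after the first injection they were fasted for 16 h and their kidneys were taken. TRACK is a transgenic mouse model of kidney cancer, and TRACK-ATF4 KO mice combine it with the deletion of Atf4. The transgene, the age and the tamoxifen treatment of the TRACK groups, and whether WT mice received tamoxifen, are not given in the sources used here. Deletion was thus aimed at tubule cells, and the Atf4 alleles of fat, vessels and stroma in the same piece of cortex were not analysed here.

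Totals on genes were between 53688512 and 71364561 counts per library, and proximal tubule markers were high in all of them, with summed levels of 12573.6 to 45080.2 CPM (CPM scales the counts of a library to a common total, here with TMM factors). Atf4 itself was at 84.5 ± 9.81 CPM in WT, 65.4 ± 9.30 in GCERAΔ, 83.6 ± 8.93 in TRACK and 92.4 ± 10.0 in TRACK-ATF4 KO cortices (SD; n = 5, 5, 3 and 4). The counts do not separate the deleted exons. Xist, transcribed from the inactive X chromosome of females, was between 149 and 418 CPM in WT libraries and at 6.08 CPM or less in the other 12, so sex and genotype cannot be told apart in comparisons with WT. Libraries also separated by how much of their total lay on processed pseudogenes, into a lower range (kind A) and a higher one (kind B). Kind A held WT 1, 3, 4 and 5, GCERAΔ 1 and 2, and TRACK-ATF4 KO 1 and 2, and the other 9 libraries, including all 3 TRACK libraries, were of kind B. The labels number 5 WT and 5 GCERAΔ mice, while the stated number per cohort is 3 to 4. The study's list of sequenced libraries repeats 2 sample names with a letter added, so that a mouse may stand behind both WT 1 and WT 2, and another behind both GCERAΔ 2 and GCERAΔ 3. WT 1 and 2 differed by a median of 0.136 on the log2 scale over 9137 genes, against 0.167 to 0.184 between WT 2 and the other WT libraries. WT 1 differed less, by 0.102 to 0.110, from WT 3, 4 and 5, which share its kind. GCERAΔ 2 and 3 differed by 0.141, close to the 0.147 between GCERAΔ 1 and 3. GCERAΔ 1 and 2, of the same kind, differed by 0.110. No source ties those names to the labels, so the libraries were kept apart. The members' correlations and median changes are also given without some of these libraries or with them summed. For the listed genes below, n counts them as separate, and calls lost on summing are named.

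White fat cells store triglyceride in a single large droplet, and brown fat cells hold many small droplets and burn fat for heat. Perilipins and CIDE proteins coat and fuse the droplets, and fat cells also secrete hormones such as adiponectin, leptin and resistin. Perirenal fat in mice holds white cells and, near the kidney hilum, cells of the brown type. Kidney tubule cells also make droplets and oxidise fatty acids, and capillary endothelium makes FABP4, so a fat-cell gene is not always particular to fat. In bulk tissue, fewer cells of a type and less RNA per cell cannot be told apart.

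C/EBP factors and PPARγ drive fat-cell genes, and the letters TTGCNNAA are of the kind that C/EBP factors bind. RefSeq promoter windows (GRCm38.p6) matched 8 of the 10 genes, and Fabp4 and Cidea had none in the table. In the 250 bases before the start, searched on both strands, TTGCNNAA stood in windows of Plin1, Cidec and Lep, and in 9.56% of all 32851 windows. These 3 stretches are shown because they belong to genes of different behaviour below. Plin1 was high in GCERAΔ 2, GCERAΔ 3 and TRACK 1. Cidec was highest in the same libraries but with TRACK 2 close to GCERAΔ 2, and Lep was high in GCERAΔ 2 and 3. Capitals mark the matches. In Lep the same 8 letters read alike on both strands and were found as overlapping matches. The first of 2 windows of Cidec, and the windows of Adipoq, Cfd, Plin4, Retn and Ucp1, did not hold these letters. The second window of Cidec lies inside the span of the gene given below. That of Plin1 overlaps the span of its gene given below, and the second marked match lies inside that span. AGGTCA, letters that nuclear receptors bind, stood in the Ucp1 window and in 14.0% of all windows. A match of letters is a description and shows no binding.
Plin1 (chr7:79732777-79733026, minus strand): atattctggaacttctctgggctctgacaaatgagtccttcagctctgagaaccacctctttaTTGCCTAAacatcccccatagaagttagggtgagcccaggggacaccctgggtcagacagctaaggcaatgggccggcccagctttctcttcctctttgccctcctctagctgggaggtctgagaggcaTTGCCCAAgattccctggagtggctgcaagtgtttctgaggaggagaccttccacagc
Cidec, second window (chr6:113434765-113435014, minus strand): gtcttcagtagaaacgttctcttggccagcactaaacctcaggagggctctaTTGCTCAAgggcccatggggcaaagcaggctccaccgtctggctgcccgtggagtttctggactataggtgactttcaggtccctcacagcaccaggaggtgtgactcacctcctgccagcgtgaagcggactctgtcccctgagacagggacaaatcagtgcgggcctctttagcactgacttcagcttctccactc
Lep (chr6:29059971-29060220, plus strand): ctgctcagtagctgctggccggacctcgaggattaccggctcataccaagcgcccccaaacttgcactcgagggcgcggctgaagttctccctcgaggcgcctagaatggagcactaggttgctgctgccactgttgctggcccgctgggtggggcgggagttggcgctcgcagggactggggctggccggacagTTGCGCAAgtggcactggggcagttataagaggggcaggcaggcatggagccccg

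The secreted proteins come first. Adipoq (chr16:23146536-23158028, GRCm38) encodes adiponectin, a hormone made by fat cells. Its level was 7.99 CPM in TRACK 1, 4.93 in GCERAΔ 2 and 3.88 in GCERAΔ 3. In WT 1 to 5 it was 0.417, 0.442, 0.305, 0.0185 and 0 CPM. In GCERAΔ 1, 4 and 5 it was 0.0311, 0 and 0.106 CPM, and in TRACK 2 and 3 it was 0.0702 and 0.0977 CPM. TRACK-ATF4 KO 1 was at 0.0524 CPM and the other 3 libraries of that group had no count. The 3 high libraries thus held 91.0% of the 1048 Adipoq counts of the series. GCERAΔ and TRACK each held high and low libraries, and TRACK-ATF4 KO was low throughout.

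Cfd (chr10:79890853-79892655) encodes adipsin, the complement factor D that fat cells secrete. It was the most abundant of the members per length in TRACK 1, with 55.1 FPKM, and also in GCERAΔ 2, with 16.0 FPKM. In CPM it reached 51.1 in TRACK 1, 15.5 in GCERAΔ 2 and 15.2 in GCERAΔ 3. WT 1 and WT 2 came next with 235 and 308 counts, and no other library exceeded 0.521 CPM. WT 1 and 2 therefore stood apart from WT 3, 4 and 5, which had 0.377, 0.406 and 0.0165 CPM.

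Retn (chr8:3655770-3660110) encodes resistin, another fat-cell hormone of mice. It had 175 counts in TRACK 1, 75 in GCERAΔ 2, 63 in GCERAΔ 3, 30 in WT 2, 22 in WT 1 and 10 in TRACK 3. In the remaining 11 libraries it had 0 or 1 count. All 4 TRACK-ATF4 KO libraries were at 0, so Retn was at least 89.8-fold lower there than in TRACK, taking 3 counts over the group as the limit. As 175 of the 185 TRACK counts came from TRACK 1, that bound rests on 1 library.

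Lep (chr6:29060220-29073877) encodes leptin, which is made in proportion to white fat mass. It had 25 counts in GCERAΔ 2 and 18 in GCERAΔ 3. WT 2 had 4 counts, TRACK 1 had 2 and GCERAΔ 1 had 1, and the other 12 libraries had none. At 0.413 CPM in its highest library, Lep was at the edge of what this depth can show. TRACK 1, the library with the highest Adipoq and Cfd, was thus not a library with much Lep.

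The genes of the lipid droplet were more varied. Plin1 (chr7:79720218-79732903) encodes perilipin 1, the coat of the large droplet of fat cells. It was at 3.77 CPM in TRACK 1, 3.64 in GCERAΔ 2 and 3.14 in GCERAΔ 3, and at 0.537 CPM or less in the other 14 libraries. TRACK 2 and 3, at 0.386 and 0.537 CPM, and WT 1 and 2, at 0.432 and 0.493 CPM, were the highest of those 14. The 3 top libraries were closer to each other in Plin1 than in Adipoq or Cfd.

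Cidec (chr6:113424634-113435760) encodes FSP27, which fuses droplets in fat cells and is also found in fatty liver. It was at 16.1 CPM in TRACK 1, 4.47 in GCERAΔ 3 and 3.95 in GCERAΔ 2. TRACK 2 followed with 3.65 CPM and TRACK 3 with 1.82 CPM. TRACK-ATF4 KO libraries lay between 0.981 and 1.76 CPM and WT libraries between 0.185 and 1.31 CPM, and the lowest value of the series was 0.0311 CPM in GCERAΔ 1. Unlike Adipoq, Cidec had counts in every library, and every TRACK library was above every WT and every TRACK-ATF4 KO library. How many of all genes separate in this way was not taken, and nothing is read from it.

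Plin4 (chr17:56100591-56109803) encodes perilipin 4, a coat of small nascent droplets in fat and muscle. It was high in the whole TRACK group, with 15.4, 11.1 and 16.0 CPM in TRACK 1, 2 and 3. TRACK-ATF4 KO libraries had 1.27, 1.17, 2.01 and 1.51 CPM. WT libraries had 2.51 to 3.96 CPM, and GCERAΔ 1 to 5 had 0.761, 3.62, 3.93, 2.29 and 6.08 CPM. GCERAΔ 2 and 3 were therefore not the highest of their group, and TRACK 1 was between the other 2 TRACK libraries. The TRACK values overlapped with no other group. The share of all genes with such a separation was not taken, and nothing is read from it.

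Fabp4 (chr3:10204088-10208576) encodes the fatty acid carrier of fat cells and capillary endothelium. Its levels were high in every library, from 37.5 CPM in GCERAΔ 5 to 98.1 CPM in TRACK 3, which is a 2.62-fold range. Group means were 49.7 ± 8.11 CPM in WT, 46.9 ± 11.0 in GCERAΔ, 73.5 ± 25.4 in TRACK and 53.7 ± 11.7 in TRACK-ATF4 KO cortices (SD; n = 5, 5, 3 and 4). GCERAΔ 2 and 3, at 53.8 and 62.8 CPM, were above the other GCERAΔ libraries, which had 37.5 to 41.7 CPM. In TRACK, the highest value was that of TRACK 3 and not of TRACK 1, which had 75.1 CPM.

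The last pair are genes of brown fat. Ucp1 (chr8:83290352-83298452) encodes the uncoupling protein that lets brown fat mitochondria make heat. It had 104 counts in GCERAΔ 2, 73 in GCERAΔ 3, 8 in TRACK 1, 7 in TRACK 2, 4 in TRACK-ATF4 KO 4 and 1 each in GCERAΔ 4 and WT 4, and none in the other 10 libraries. GCERAΔ 2 and 3 thus held nearly the whole signal, at 1.72 and 1.27 CPM, against 0.148 CPM in TRACK 1. Cidea encodes a droplet protein that is a marker of brown and beige fat cells. It was at 1.49 CPM in GCERAΔ 3 and 0.893 in GCERAΔ 2, then at 0.293 in TRACK 3, 0.157 in TRACK-ATF4 KO 4 and 0.136 in WT 2. TRACK 1 had a single Cidea count.

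**Figure D1:**
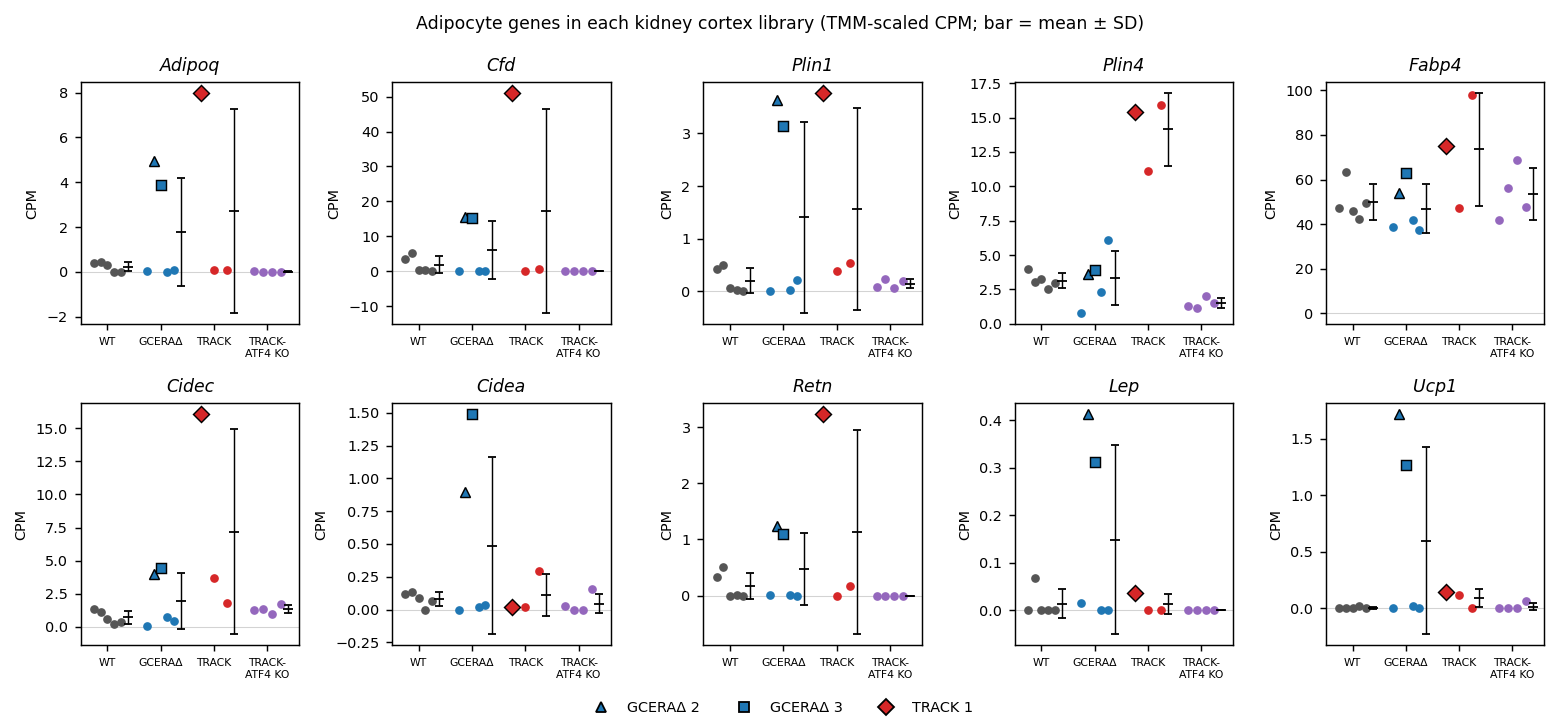
Level of each of the 10 adipocyte genes (CPM on linear axes, 1 panel per gene) in each of 17 libraries by group; points are libraries, and bars give the mean and SD of the group. The triangle (GCERAΔ 2), square (GCERAΔ 3) and diamond (TRACK 1) stand above the other libraries for Adipoq, Cfd, Plin1, Retn and Cidec, and the diamond is low for Cidea, Lep and Ucp1, while Plin4 is high in all 3 TRACK libraries.

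Of all 16492 genes with a mean count of at least 10, 33 had the same 3 highest libraries, which is 0.200%. Adipoq, Cfd, Plin1, Retn, Cidec and Ucp1 were 6 of the 9 members that reached this mean count. This share is set by the way the members were chosen, and nothing is read from it. With scaling by RLE factors or by raw totals in place of TMM, the same number of 6 was found.

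The levels of Adipoq, Cfd, Plin1 and Retn moved together most closely. Over 17 libraries, Pearson's r of log2(CPM + 0.5) between pairs of these 4 genes was 0.918 to 0.978, and Spearman's rho was 0.641 to 0.839. With the group means removed r was 0.933 to 0.985, and without WT 2 and GCERAΔ 3, the possible repeats, it was 0.923 to 0.98. Since 3 libraries lie far from the rest, the coefficients were also taken over the other 14, where r was 0.567 to 0.958 and rho was 0.326 to 0.699, with WT 1 and 2 at the upper end. Plin4 had lower coefficients with the other 9 members, from 0.067 to 0.595 over 17 libraries, and Fabp4 had 0.172 to 0.565. Ucp1 and Cidea had r = 0.89 over 17 libraries and -0.068 over the 14. These coefficients describe libraries that share groups, kinds and possibly mice, and carry no test.

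**Figure D2:**
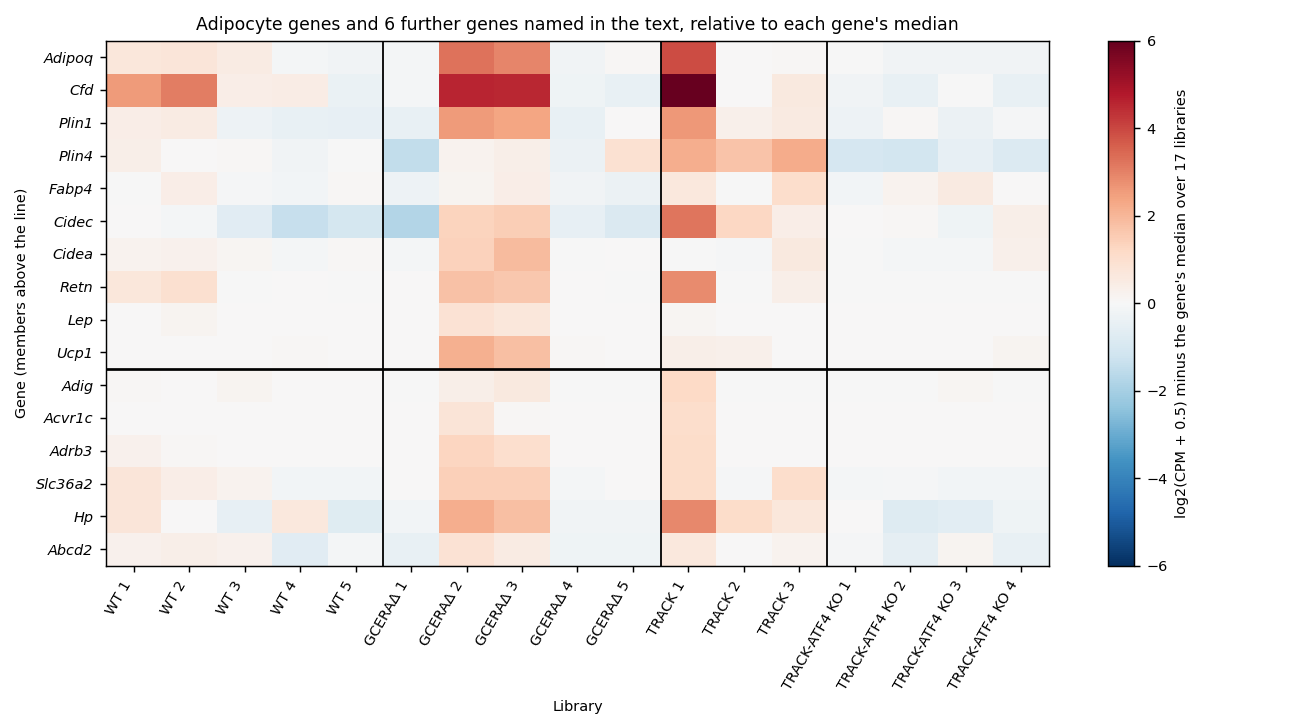
log2(CPM + 0.5) of the 10 members and, below the line, of 6 further genes named in the text, minus the median of each gene over 17 libraries (colour scale from -6 to 6), with libraries in columns by group. The columns of GCERAΔ 2 and 3 are red for most genes, that of TRACK 1 is red except for Cidea, Lep and Ucp1, and WT 1 and 2 show a fainter red for Adipoq, Cfd, Plin1 and Retn.

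The make-up of the signal was compared by setting the counts of each gene against those of Adipoq in the same library. The share of a gene in its own counts plus those of Adipoq is given with an exact (Clopper-Pearson) 95% binomial interval, which covers counting error only. For Ucp1 the share was 25.9% (21.7 to 30.4%) in GCERAΔ 2 and 24.6% (19.8 to 29.9%) in GCERAΔ 3, but 1.82% (0.788 to 3.55%) in TRACK 1. For Cidea the share was 15.3% (11.7 to 19.5%) and 27.7% (22.8 to 33.1%) in GCERAΔ 2 and 3, and 0.231% (0.00585 to 1.28%) in TRACK 1. For Lep it was 7.74% (5.07 to 11.2%), 7.44% (4.47 to 11.5%) and 0.461% (0.0559 to 1.66%) in the same order. These are single libraries known for their high levels, GCERAΔ 2 and 3 may come from the same mouse, and the spread between mice is not covered by the intervals.

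The shares of other genes had other orders. The share of Cfd was 75.8% (73.3 to 78.2%) in GCERAΔ 2, 79.6% (77.1 to 82.0%) in GCERAΔ 3 and 86.5% (85.3 to 87.7%) in TRACK 1, and it was 89.4% and 92.2% in WT 1 and 2. For Retn the share was 20.1% (16.2 to 24.5%), 21.9% (17.3 to 27.2%) and 28.8% (25.3 to 32.6%) in GCERAΔ 2, GCERAΔ 3 and TRACK 1. In WT 1 and 2 the Retn share was 44.0% (30.0 to 58.8%) and 53.6% (39.7 to 67.0%). Plin1 was at 42.5% (38.2 to 46.9%) and 44.7% (39.8 to 49.7%) in GCERAΔ 2 and 3, and at 32.1% (28.5 to 35.9%) in TRACK 1. Cidec was at 44.5% (40.3 to 48.8%), 53.5% (49.0 to 58.1%) and 66.8% (64.2 to 69.4%) in these 3 libraries. In WT 1 and 2, with 28 and 26 Adipoq counts, Ucp1 had no count, which allows a share of up to 12.3% and 13.2%.

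**Figure D3:**
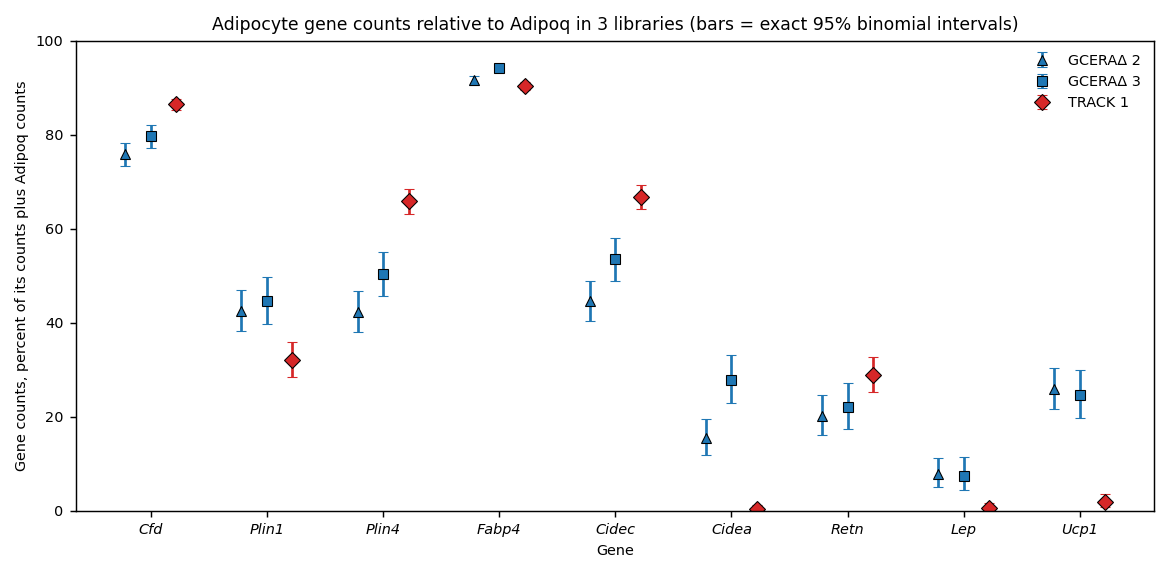
Counts of each gene as a percent of its counts plus those of Adipoq (linear axis) in GCERAΔ 2, GCERAΔ 3 and TRACK 1; bars are exact 95% binomial intervals for counting error. GCERAΔ 2 and 3 lie near each other for Ucp1 (25.9% and 24.6%) and Lep, with TRACK 1 near 0 for Ucp1, Cidea and Lep, and TRACK 1 highest for Cfd and Cidec.

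Ranked per length, the members also stood in a different order in these libraries. In TRACK 1 the FPKM values were 55.1 for Cfd, 16.6 for Fabp4, 8.61 for Cidec, 5.75 for Adipoq, 2.65 for Plin4 and 2.04 for Retn. Plin1 followed with 0.806 FPKM, and Ucp1, Cidea and Lep were at 0.0898, 0.0165 and 0.011 FPKM. In GCERAΔ 3 the order was Cfd at 16.0 FPKM, Fabp4 at 13.6, Adipoq at 2.73, Cidec at 2.34, Cidea at 1.30 and Ucp1 at 0.751. Retn, Plin4, Plin1 and Lep came last there with 0.671, 0.661, 0.655 and 0.0903 FPKM, of which the first 3 are close.

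Between groups, the members' fitted changes followed these libraries. In the edgeR fit without a filter on low genes, the median log2 fold change of the 10 members was 2.09 for GCERAΔ over WT, 2.79 for TRACK over WT and -3.01 for TRACK-ATF4 KO over TRACK. The medians over all genes fitted were -0.015, -0.045 and 0.055. Without GCERAΔ 2 and 3, the first became -1.19, and 3 GCERAΔ libraries then stood against 5 WT. Without TRACK 1, the TRACK over WT median became 0.72 and that of TRACK-ATF4 KO over TRACK became -1.84. In that last value Lep had no count left and was not fitted, and Retn had been set against a group at 0. With WT 1 and 2, and GCERAΔ 2 and 3, each summed to 1 library, the first 2 medians were 1.82 and 3.23.

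Single members show which changes rest on the high libraries. For GCERAΔ over WT, the log2 fold change of Adipoq was 2.88 (SE 1.23) with all libraries and -2.34 (SE 1.36) without GCERAΔ 2 and 3. That of Cfd turned from 1.66 (SE 1.26) to -4.92 (SE 1.35), and that of Retn from 1.43 (SE 1.31) to -3.70 (SE 1.76), with WT 1 and 2 then holding most of the counts. Plin1, Cidec, Cidea and Lep also turned from positive to negative, and Ucp1 moved from 6.75 (SE 1.71) to 0.52 (SE 1.67). Plin4, at 0.06 (SE 0.36) and -0.07 (SE 0.43), was near 0 in both. Fabp4 moved less than most members, from -0.10 (SE 0.14) to -0.36 (SE 0.12).

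For TRACK over WT the picture was divided. Adipoq changed from 3.49 (SE 1.10) to -1.48 (SE 1.30) without TRACK 1, and Cfd from 3.15 (SE 1.13) to -2.45 (SE 1.12). Plin4 was 2.15 (SE 0.17) with all libraries and 2.09 (SE 0.19) without TRACK 1. Cidec kept its direction, with 3.29 (SE 0.57) and 1.91 (SE 0.53), and Fabp4 had 0.55 (SE 0.17) and 0.54 (SE 0.18). Fabp4 depended more on TRACK 3, without which it was 0.29 (SE 0.15), and TRACK 2, at 47.4 CPM, was below the WT mean. The fitted changes of Plin4 and Cidec were at least 2.06 and 1.91 without any 1 of the TRACK libraries, while those of Adipoq and Cfd turned negative without TRACK 1. All 3 TRACK libraries were of kind B and 4 of 5 WT libraries of kind A, and Xist differed between these groups as well.

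For TRACK-ATF4 KO over TRACK, Plin4 had a log2 fold change of -3.24 (SE 0.21) with all libraries and -3.18 (SE 0.25) without TRACK 1. Cidec went from -2.40 (SE 0.46) to -1.02 (SE 0.40) and Plin1 from -3.43 (SE 0.71) to -1.68 (SE 0.86). Adipoq went from -7.30 (SE 1.32) to -2.44 (SE 1.94), and Cfd from -7.98 (SE 1.32) to -2.40 (SE 1.17). Fabp4 was at -0.45 (SE 0.18) and -0.43 (SE 0.18), but at -0.18 (SE 0.17) without TRACK 3 and -0.68 (SE 0.15) without TRACK 2. TRACK-ATF4 KO was the only group with no library above 0.0524 CPM of Adipoq. TRACK over WT and TRACK-ATF4 KO over TRACK share the TRACK libraries, so a high TRACK 1 gives opposite signs in both.

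**Figure D4:**
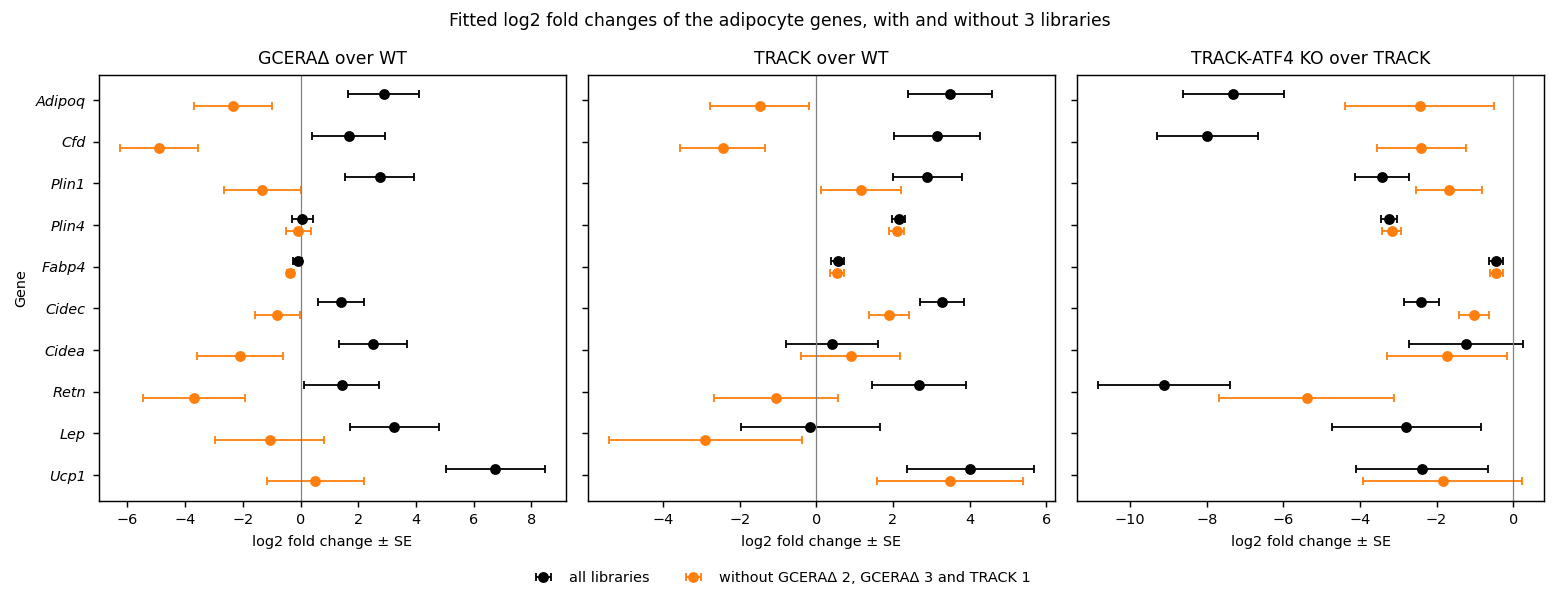
Fitted log2 fold change with its standard error (x axis) of each member (rows) in 3 comparisons, with all libraries (black) and without GCERAΔ 2, GCERAΔ 3 and TRACK 1 (orange). Adipoq, Cfd and Retn cross 0 in both comparisons with WT when these libraries are left out, and Plin4 and Fabp4 keep nearly the same values in comparisons with TRACK.

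Genes with a mean of at least 1 FPKM in either group were tested in edgeR by quasi-likelihood, and p was adjusted over all of them (Benjamini-Hochberg). Of the 11581 genes tested for GCERAΔ against WT, 14.1% were called higher and 13.5% lower. Of 11967 genes tested for TRACK against WT, 23.0% were higher and 22.6% lower. Of 11928 genes tested for TRACK-ATF4 KO against TRACK, 2.81% were higher and 4.28% lower. For the difference between both ATF4 contrasts, tested with 17 libraries on 12208 genes, 12.3% were higher and 12.8% lower. Of the 10 members, 4 reached the minimum in the first comparison and 5 in each of the others. Since members were chosen with these values known, and could pass the minimum through the group where they were high, their calls are not used.

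Markers that were not members were measured in the same libraries. The list held 24 genes of white or general fat cells and 12 of brown or thermogenic ones. It was chosen with earlier results of these data known, so its calls and p-values below are given as a description. Among those with low levels elsewhere, Adig, Acvr1c and Adrb3 had the same 3 highest libraries as Adipoq. Adrb3, the adrenergic receptor of fat cells, was at 0.728 CPM in GCERAΔ 2, 0.573 in TRACK 1 and 0.503 in GCERAΔ 3, and those 3 libraries held 104 of its 112 counts. Acvr1c, a receptor of the activin family found in fat, had 51 of its 52 counts there. These were 29 in TRACK 1, 21 in GCERAΔ 2 and only 1 in GCERAΔ 3, as many as in WT 1. Adig, which encodes adipogenin, had 62 of 77 counts in those 3 libraries. Otop1, a proton channel of brown fat, had 23 of 24 counts there, none of them in TRACK 1. Zic1, which marks brown fat of the back, had no count in any library. Other listed genes of low level had other orders, among them Mrap, Pnpla3, Ebf2, Cpt1b and S100b. Lgals12, a galectin of fat cells, was highest in WT 3, WT 1 and WT 5, at 3.42, 1.48 and 1.40 CPM, and was at 0.148 CPM in TRACK 1. Dio2, the deiodinase that brown fat uses to activate thyroid hormone, was highest in WT 1, WT 4 and GCERAΔ 2, at 0.671, 0.499 and 0.463 CPM, and had 4 counts in TRACK 1.

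Most of the other listed genes were abundant in every cortex and did not share this order. Their summed level was 3175.2 to 3871.3 CPM in WT and 2848.8 and 2950.5 CPM in GCERAΔ 2 and 3 for the 24 white or general genes. TRACK 1 had 4417.6 CPM, the top of the TRACK range of 3353.4 to 4417.6 CPM. For the 12 brown or thermogenic genes, GCERAΔ 2 and 3 had 26.3 and 25.6 CPM, inside the range of 25.3 to 27.9 CPM of their group. WT libraries had 33.0 to 42.9 CPM. Most of the sum in GCERAΔ 2 and 3 was Prdm16, at 16.7 and 14.9 CPM, and Cox7a1, at 6.68 and 7.92 CPM. It therefore cannot show whether genes of low level, such as Adrb3 and Otop1, were raised.

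Of the 36 listed genes, 20 were tested for TRACK against WT, of which 8 rose and 5 fell, beside 23.0% and 22.6% of all genes. Of these, Trarg1 and Aoc3 reached 1 FPKM only in TRACK, and Cox8b only in WT, and without the minimum 10 of 35 rose and 6 fell. Shares over all 26036 genes of the fit without the minimum are not given, so nothing is read from these last counts. The median log2 fold change of the 20 was 0.43, beside -0.010 over all genes tested. Gpd1, which makes glycerol phosphate for triglyceride, was at 1557 ± 235 CPM in TRACK (SD, n = 3) and 631 ± 21.9 CPM in WT (SD, n = 5). Its log2 fold change was 1.30 (SE 0.09, adjusted p = 4.34e-06, edgeR). Lipe and Pnpla2, the hormone-sensitive and adipose triglyceride lipases, rose by 1.22 (SE 0.13, adjusted p = 5.92e-05, edgeR) and 0.48 (SE 0.08, adjusted p = 0.00124, edgeR). Trarg1, Aoc3, Thrsp and Dgat2, which act in glucose transporter traffic, amine oxidation, lipogenesis and triglyceride synthesis, rose by 1.84, 1.52, 1.25 and 0.83. With library kind as a covariate, Thrsp lost its call, at 0.55 (adjusted p = 0.311, edgeR). Cd36, the fatty acid transporter, rose by 2.17.

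Scd1, the desaturase that makes oleate, fell by 2.76 in TRACK against WT, and Acsl1, which activates long-chain fatty acids, fell by 1.20. Cox8b, a muscle and brown fat subunit of cytochrome oxidase, had 565 counts in WT and none in TRACK, and was at least 108.5-fold lower. Slc2a4, the insulin-responsive glucose transporter, and Cox7a1 fell by 0.43 and 0.45, and lost their calls in 5 and 10 of 17 alternatives. With the possible repeats summed, Cox7a1 lost its call and the other listed genes called for TRACK against WT kept theirs. Myh1, a muscle myosin, was at 3.36 to 10.5 CPM in WT libraries and at 0.11 CPM or less in the others, while Myh2 and Myh4 had no count in any. Within WT, Cox8b was highest in WT 2, 3 and 1, at 3.45, 2.15 and 1.65 CPM, which were also the WT libraries with the most Adipoq. In GCERAΔ 2, GCERAΔ 3 and TRACK 1 it was at 0.0661, 0.555 and 0 CPM. Cox8b and Myh1 were thus highest in WT, and not in the libraries of highest Adipoq. The part of sex in these differences was not tested.

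For TRACK-ATF4 KO against TRACK, 6 of 19 listed genes tested fell and 0 rose (edgeR), beside 4.28% and 2.81% of all genes. At an unadjusted p under 0.05, 8 were lower and 1 higher, and DESeq2 called 8 lower and 1 higher. Trarg1 and Aoc3 reached 1 FPKM only in TRACK, where they were high, and without the minimum 8 of 33 fell and 2 rose. Shares over all genes without the minimum are not given here either, and nothing is read from these last counts. The median log2 fold change of the 19 was -0.21, beside 0.014 over all genes tested. Gpd1 fell by 1.03 (SE 0.16, adjusted p = 0.00557, edgeR), from 1557 ± 235 to 753 ± 164 CPM (SD; n = 3 and 4). Pnpla2 fell by 0.70 (SE 0.11, adjusted p = 0.00634, edgeR), from 226 ± 10.6 to 137 ± 18.8 CPM. Aoc3, Trarg1, Thrsp and Lipe fell by 1.29, 1.09, 0.82 and 0.54. Each of these 6 genes was higher in every TRACK library than in every TRACK-ATF4 KO library. They were called in this same comparison, so nothing is read from that separation, and its share over all genes was not taken. TRACK 1 was the highest of its group for Gpd1, Pnpla2 and Trarg1.

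These calls were not equally firm. Gpd1 was called in each of 15 alternative fits, with adjusted p up to 0.0473, and Pnpla2 in 14 of them, all but the fit of 17 libraries at once (adjusted p = 0.0607, edgeR). Aoc3, Lipe, Thrsp and Trarg1 lost their calls in 8, 9, 9 and 10 of the 15. Without TRACK 1, and likewise without TRACK 3, Gpd1 and Pnpla2 kept their calls and the other 4 lost theirs, and without TRACK 2 Lipe also kept its call. Without TRACK-ATF4 KO 2 or 3, Gpd1 and Pnpla2 were again the ones kept. Trarg1 lost its call without TRACK-ATF4 KO 1, and Aoc3 and Lipe lost theirs without TRACK-ATF4 KO 4. TRACK was all of kind B and TRACK-ATF4 KO had 2 libraries of each kind, and with library kind as a covariate Gpd1, Pnpla2 and Aoc3 were called.

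**Figure D5:**
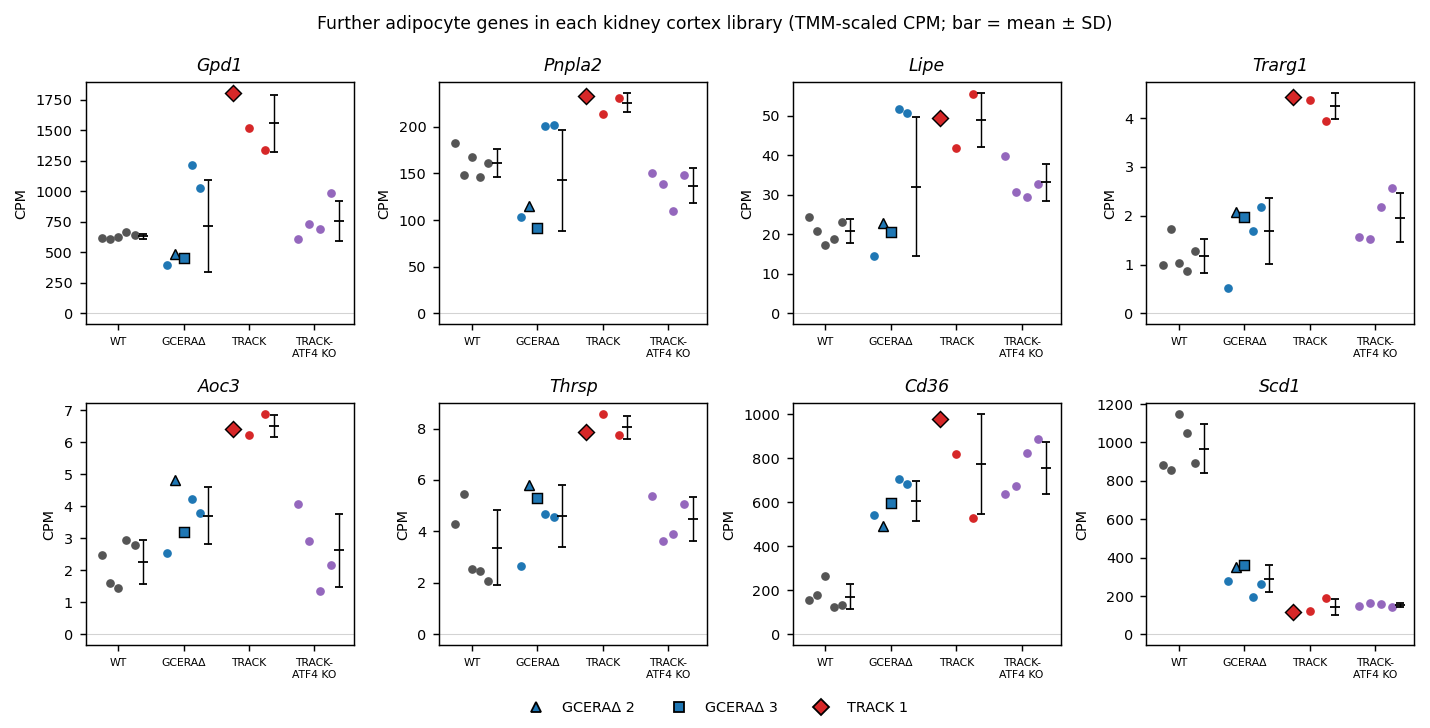
Level of 8 further adipocyte genes (CPM on linear axes, 1 panel per gene) in each library by group; points are libraries, bars give mean and SD, and GCERAΔ 2, GCERAΔ 3 and TRACK 1 have the triangle, square and diamond. Gpd1, Pnpla2, Trarg1, Aoc3 and Thrsp are high in all 3 TRACK libraries and not only in TRACK 1, Scd1 is high in WT, and Lipe, Gpd1 and Pnpla2 in GCERAΔ lie higher in GCERAΔ 4 and 5 than in GCERAΔ 1, 2 and 3.

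For GCERAΔ against WT, 3 of 18 listed genes tested rose and 6 fell, beside 14.1% and 13.5% of all genes. The median log2 fold change of the 18 was -0.039, beside -0.00051 over all genes tested. Cox8b reached a mean of 1 FPKM only in WT, where it was high, and without the minimum 3 of 35 rose and 7 fell. No share over all genes without the minimum is given, and nothing is read from these last counts. Car3, a carbonic anhydrase of fat and muscle, rose by 3.58 (SE 0.51, adjusted p = 0.000399, edgeR). Its values were 97.3 and 107 CPM in GCERAΔ 2 and 3, 44.6 CPM in GCERAΔ 1, and 18.9 and 20.5 CPM in GCERAΔ 4 and 5, all above the 3.87 to 6.85 CPM of WT. Car3 was thus highest in GCERAΔ 2 and 3. TRACK 1, at 29.4 CPM, was above TRACK 2 and 3, at 5.16 and 2.05 CPM. TRACK-ATF4 KO libraries, with next to no Adipoq, had 13.3 to 27.6 CPM. Cd36 rose by 1.81 and Dgat2 by 0.53, the latter in 8 of 19 alternatives. Scd1, Acsl1, Cox8b, Cox7a1, Prdm16 and Slc2a4 fell by 1.74, 1.16, 3.71, 0.59, 0.50 and 0.44, and Slc2a4 lost its call in 6 of 19 alternatives. Without GCERAΔ 2 and 3, the number called was again 9. With the possible repeats summed, Dgat2 lost its call and the other listed genes called kept theirs.

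Across the whole table, genes were ranked by Pearson's r between log2(CPM + 0.5) and the mean standardised level of the 9 members with a mean count of at least 10, over 17 libraries. The 10 genes with the highest r outside the members included Slc36a2, Hp, Abcd2, Nat8l, S100a6, Rian, Polr3e, Dpt and Mfap5, with r from 0.922 to 0.726. Slc36a2, an amino acid transporter, was at 1.01 CPM in GCERAΔ 2, 1.01 in GCERAΔ 3, 0.702 in TRACK 1 and 0.651 in TRACK 3. Hp, which encodes haptoglobin and is made in liver and fat, was at 6.51 CPM in TRACK 1, 3.79 in GCERAΔ 2 and 2.84 in GCERAΔ 3, and at 1.54 CPM or less elsewhere. Abcd2, a peroxisomal transporter of fatty acids, was at 1.01, 0.676 and 0.795 CPM in GCERAΔ 2, GCERAΔ 3 and TRACK 1, against 0.578 CPM or less elsewhere. Nat8l, which makes N-acetylaspartate, was at 0.86 and 0.88 CPM in GCERAΔ 2 and 3 and at 0.31 CPM in TRACK 1, a pattern nearer to that of Ucp1. Dpt and Mfap5 are matrix genes of fibroblasts. Over the 14 other libraries, r was 0.78 for Slc36a2, 0.558 for Hp and 0.688 for Abcd2. The 5 genes with the lowest r were Gm11642, Ccdc174, Cyp46a1, 2610307P16Rik and Msto1, from -0.807 to -0.74.

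Other cells that can come with a piece of cortex were looked at in the same libraries. Summed markers of fibroblasts and stroma (9 genes) were at 148 and 168 CPM in GCERAΔ 2 and 3, against 126 to 168 CPM in their group, and at 237 CPM in TRACK 1, against 156 to 282 CPM in TRACK. Urothelial markers (4 uroplakin genes) were at 14.8 and 15.7 CPM in GCERAΔ 2 and 3, the top of their group's range of 1.59 to 15.7 CPM, but at 2.27 CPM in TRACK 1. Of 13 adrenal genes, the defining Cyp11b1, Cyp11b2 and Th had no count in any library, and the sums were 1.80 to 4.99 CPM, with 1.87 and 2.31 CPM in GCERAΔ 2 and 3 and the highest value in TRACK 1. Mesothelial markers (3 genes) summed to 0.317 to 5.84 CPM, with 2.00, 1.13 and 1.31 CPM in GCERAΔ 2, GCERAΔ 3 and TRACK 1. Lymphocyte markers (8 genes) were at 3.30 to 7.93 CPM and red blood cell genes (5 genes) at 71.4 to 459 CPM over the series, with 219, 149 and 352 CPM in the 3 libraries. Summed muscle markers (12 genes) were 1.14 to 2.17 CPM outside WT and 4.36 to 12.4 CPM in WT. Urothelial markers were thus at the top of the group in GCERAΔ 2 and 3, stromal markers in GCERAΔ 3 and adrenal genes in TRACK 1, and their part in the result was not tested.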

How the data were processed

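Kidney cortex was dissected, and mRNA sequenced from stranded libraries. The authors demultiplexed reads with bcl2fastq 2.20, used Cutadapt for trimming, STAR for alignment to GRCm38 and HTSeq for counting, and deposited 1 table of raw read counts per gene without normalization. The annotation release, strand setting and treatment of multi-mapping reads are not given in the sources used here. The deposited table named all 17 samples.

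The main tool was edgeR 4.0.16 in R 4.3.3 (TMM scaling, quasi-likelihood test, Benjamini-Hochberg adjustment, calls at an adjusted p of at most 0.05), beside limma 3.58.1 and DESeq2 1.42.0. Genes were tested at a mean FPKM of at least 1 in either group, with lengths from merged exons of GENCODE M21. Members were fitted without that filter. Levels are TMM-scaled CPM, and correlations used log2(CPM + 0.5). Limits for groups without a count used 3 counts over the group, and intervals cover counting error only. Replicates were the mice numbered in the labels, and p-values measure the spread between these libraries. Procedures were tested on simulated data. The genes named are the members, the listed adipocyte genes, the 10 genes of highest and the 5 of lowest correlation with the members, markers of other cells that moved with the members, and Atf4 and Xist. A gene of the highest correlations is not reported here. The members and lists were chosen with earlier results of these data known. Alternatives were RLE scaling, DESeq2, another filter or none, all 17 libraries in 1 fit, the mouse number as a replicate block, library kind, summed possible repeats, other pseudocounts, unadjusted p, and each mouse left out. Library kind for comparisons with TRACK, and leaving out GCERAΔ 2, GCERAΔ 3 and TRACK 1, were added after seeing the data.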

Additional observations from a re-analysis of the deposited data

Results flagged for a closer look

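Single libraries stood apart from the rest of their group by Dixon's ratio in 7 of 72 groups of 4 or 5 libraries (25 genes). Chance gives about 1 in 20 for continuous values, a rate that does not hold where all libraries but 1 are at 0, as in 4 of the 7. For Adipoq, Cidea, Lep and Ucp1, chosen with these values known, the values are a description and rest on 1 to 10 counts. Adipoq was at 0.0524 CPM in TRACK-ATF4 KO 1 (4 counts) and at 0 in the other 3 libraries of that group. Cidea was at 0.157 CPM (10 counts) and Ucp1 at 0.0628 CPM (4 counts) in TRACK-ATF4 KO 4, with 0.0262 CPM or less of Cidea and no Ucp1 in the rest of that group. Lep was at 0.068 CPM in WT 2 (4 counts) and Ucp1 at 0.0185 CPM in WT 4 (1 count), with none in the other WT libraries. Cox8b was at 0.555 CPM in GCERAΔ 3 against 0.106 CPM or less in the other GCERAΔ libraries. Prdm16, a regulator of brown fat that the cortex also expresses, was at 30.7 CPM in WT 3 against 22.2 to 23.2 CPM in the other WT libraries.

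The change of TRACK-ATF4 KO over TRACK minus that of GCERAΔ over WT was tested with all 17 libraries (edgeR). It differed from 0 for 10 of 20 adipocyte genes tested outside the members. These were listed with earlier results of these data known, so their p-values are a description. Of these, 3 were higher and 7 lower, beside 12.3% and 12.8% of all genes tested. Trarg1 and Aoc3 reached 1 FPKM only in TRACK, where they were high, and without the minimum 4 of 35 were higher and 11 lower. No share over all genes without the minimum is given, and nothing is read from these last counts. For members whose values were known when they were chosen no test is used, and the fitted log2 differences were -10.19 for Adipoq, -9.65 for Cfd, -3.80 for Cidec and -3.29 for Plin4. Those of Adipoq and Cfd combine a high GCERAΔ 2 and 3 on one side with a high TRACK 1 on the other. Outside the members, the log2 difference was -2.98 for Car3 (adjusted p = 0.0239, edgeR), -1.99 for Aoc3 (adjusted p = 0.00293, edgeR), -1.82 for Cd36 (adjusted p = 0.000438, edgeR), -1.60 for Trarg1 (adjusted p = 0.0265, edgeR) and -1.25 for Thrsp (adjusted p = 0.0278, edgeR). It was -1.19 for Gpd1 (adjusted p = 0.0342, edgeR), -1.06 for Dgat2 (adjusted p = 0.00764, edgeR), 0.76 for Prdm16 (adjusted p = 0.0152, edgeR), 1.73 for Acsl1 (adjusted p = 0.00552, edgeR) and 1.88 for Scd1 (adjusted p = 8.24e-05, edgeR). Without GCERAΔ 2, GCERAΔ 3 and TRACK 1, Car3, Prdm16, Thrsp and Trarg1 lost their calls. Without TRACK 1 alone, Car3, Gpd1, Thrsp and Trarg1 lost theirs. The other 5, Aoc3, Cd36, Scd1, Acsl1 and Dgat2, were called in each alternative, apart from Dgat2 in the fit with library kind (adjusted p = 0.0514, edgeR). With the possible repeats summed, all 10 kept their calls.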

How the results depend on the processing

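The replicate number in the labels did not pair the libraries: correlations of deviations between libraries of equal number were -0.604 to 0.075 for GCERAΔ and WT, and -0.087 to 0.048 in the other comparisons. With the number as a replicate block, 2106 genes in place of 3198 were called for GCERAΔ against WT, 3431 in place of 5458 for TRACK against WT, and 2 in place of 6 listed adipocyte genes for TRACK-ATF4 KO against TRACK, and the members' median for TRACK over WT was 0.92.

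For TRACK-ATF4 KO against TRACK, 846 genes became 1562 with DESeq2, 462 with library kind as a covariate, 396 without the 3 libraries of highest Adipoq, 2993 at unadjusted p, and 379 to 1424 with 1 mouse left out. The number of listed adipocyte genes called, 6, became 2 in 1 fit of all 17 libraries, 3 with library kind, 10 without a filter, 3 without the 3 libraries, and 2 to 5 with 1 mouse left out. For TRACK against WT, 5458 became 2776 with library kind. The difference of both contrasts went from 3070 to 4611 genes at unadjusted p. Without the 3 libraries the members' medians were -1.19, 0.72 and -1.84 for GCERAΔ over WT, TRACK over WT and TRACK-ATF4 KO over TRACK. With 1 mouse left out they were 1.25 to 2.61, 0.72 to 3.51 and -3.46 to -1.84, the values nearest 0 being those without GCERAΔ 3, TRACK 1 and TRACK 1. Of the 10 genes of highest likeness, 5 were again found on deviations from group means, 0 without the 3 libraries, and 4 to 9 with 1 mouse left out. For single adipocyte genes outside the members, 634 of the values kept direction and call, 98 lost the call and none changed sign. The cause of these changes was not tested, beyond the smaller numbers of libraries. Depth limits Lep, Ucp1, Cidea and Retn, which had 0 to 4 counts in most libraries.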

Other observations

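Levels within the GCERAΔ group were divided for several genes of fat metabolism that tubules also use, in an order that the adiponectin signal does not follow. Lipe was at 14.6, 22.9 and 20.5 CPM in GCERAΔ 1, 2 and 3 and at 51.7 and 50.7 CPM in GCERAΔ 4 and 5. Gpd1 was at 392, 487 and 457 CPM against 1217 and 1028 CPM in the same order. Acsl1 was at 185, 184 and 165 CPM against 449 and 479 CPM, and Pnpla2 at 103, 115 and 91.5 CPM against 201 and 202 CPM. The division was not particular to these genes. Over 9137 genes, GCERAΔ 4 and 5 differed from GCERAΔ 1, 2 and 3 by medians of 0.2025 to 0.2323 on the log2 scale. Medians were 0.1104 to 0.147 among GCERAΔ 1, 2 and 3, and 0.0977 between GCERAΔ 4 and 5. Adipoq was high in GCERAΔ 2 and 3 and not in GCERAΔ 1. GCERAΔ 1 and 2 were of kind A and GCERAΔ 3, 4 and 5 of kind B, so neither library kind nor Adipoq gives the same division. These libraries were noticed after the values were seen, and no test was made.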
